A study of Saccharomyces cerevisiae and Saccharomyces kudriavzevii and Saccharomyces uvarum with 18 samples.

Results

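The enzymes that carry sugar through glycolysis, gluconeogenesis and the pentose phosphate pathway were followed in wine yeasts through 32 genes, taken by their systematic ORF names out of 6172 genes on the array. They comprised 4 genes of hexose phosphorylation (HXK1 YFR053C, HXK2 YGL253W, GLK1 YCL040W, EMI2 YDR516C), 5 of upper glycolysis (PGI1 YBR196C, PFK1 YGR240C, PFK2 YMR205C, FBA1 YKL060C, TPI1 YDR050C), 10 of lower glycolysis (TDH1 YJL052W, TDH2 YJR009C, TDH3 YGR192C, PGK1 YCR012W, GPM1 YKL152C, GPM2 YDL021W, ENO1 YGR254W, ENO2 YHR174W, CDC19 YAL038W, PYK2 YOR347C), 2 of gluconeogenesis (FBP1 YLR377C, PCK1 YKR097W), 5 of the oxidative pentose phosphate branch (ZWF1 YNL241C, SOL3 YHR163W, SOL4 YGR248W, GND1 YHR183W, GND2 YGR256W) and 6 of its non-oxidative branch (RKI1 YOR095C, RPE1 YJL121C, TKL1 YPR074C, TKL2 YBR117C, TAL1 YLR354C, NQM1 YGR043C). Tempranillo must was fermented at 28°C or at 12°C by S. uvarum CECT 12600, S. kudriavzevii IFO 1802 or S. cerevisiae Fermol cryophile, which is sold for winemaking, and cells were taken as stationary phase began. RNA of each strain was set on 2-colour arrays against RNA of the wine strain S. cerevisiae Lalvin T73 from the same stage and temperature, with 3 arrays for each of the 6 groups, lettered A, B and C. By the sample titles, each species was represented by 1 strain beside T73. All arrays had the strain in Cy3 and T73 in Cy5, and the spotted probes were made from ORFs of S. cerevisiae S288c. Dye bias and the match of a foreign transcript to its probe are therefore part of each ratio. All values are log2 of strain over T73, and a value of 1 is a ratio of 2.

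Glycolysis turns glucose into pyruvate, the precursor of ethanol, and its enzymes are among the most abundant proteins of fermenting yeast. The oxidative pentose phosphate branch draws off glucose 6-phosphate to make NADPH, and the non-oxidative branch rearranges sugar phosphates into precursors of nucleotides and aromatic amino acids, or back into glycolysis. Many of these steps have more than 1 gene in yeast, and some minor copies, such as PYK2, GND2 and TKL2, are known in S. cerevisiae to be used mainly when glucose is scarce.

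All 32 genes had a value on all 18 arrays. Over all genes, the arrays had medians between -0.196 and 0.208, standard deviations between 0.63 and 1.99, and 5682 to 6175 values, so that the arrays differed in spread more than in centre. Each gene was fitted with limma over all arrays, and a gene was called where its p-value, adjusted over all genes tested by the Benjamini-Hochberg procedure, was below 0.05. Over 10 comparisons (6 of a strain against T73, 3 of temperature within a strain and 1 of temperature averaged over the strains), 17 of 320 tests on these genes were called, and they fell on 10 of the 32 genes. Of these 17 calls, 6 were held when any 1 array was left out, 11 were lost without at least 1 array, and none changed direction.

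**Figure D1:**
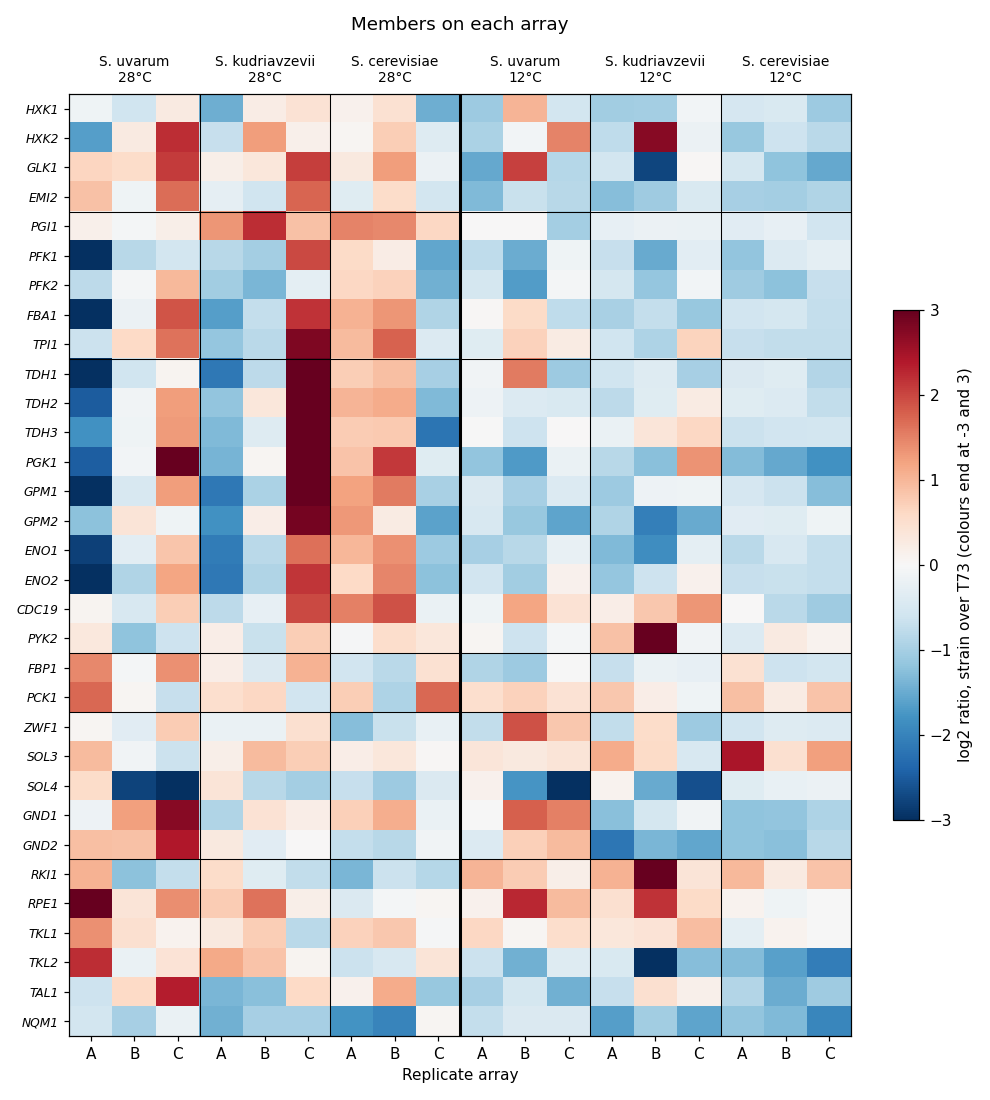
Log2 ratio of strain over T73 for the 32 genes (lines, ordered by role) on each of the 18 arrays (columns, 28°C left of 12°C), with red for higher and blue for lower in the strain and colours ending at -3 and 3. Most glycolytic genes share 1 colour within an array at 28°C, while replicate arrays of a group differ.

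The first question was how the ratio to T73 differed between 28°C and 12°C. This difference is the strain's change with temperature minus that of T73, since T73 was measured on every array. Averaged over the strains, 9 arrays against 9, GLK1, EMI2, PGI1, GND2 and TKL2 were higher relative to T73 at 28°C than at 12°C, and RKI1 was lower. These were 6 of the 32 genes (18.8%), 5 higher and 1 lower, where 36.2% of all genes were called in the same comparison (19.8% higher and 16.4% lower), and the difference between these shares was not tested.

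PGI1 encodes phosphoglucose isomerase, which links glucose 6-phosphate to glycolysis. At 28°C it had log2 ratios of 0.16, -0.05 and 0.17 for S. uvarum, 1.33, 2.22 and 0.89 for S. kudriavzevii, and 1.48, 1.43 and 0.62 for S. cerevisiae Fermol cryophile. At 12°C it had 0.00, 0.02 and -1.01 for S. uvarum, -0.25, -0.18 and -0.21 for S. kudriavzevii, and -0.34, -0.25 and -0.57 for Fermol cryophile. All 6 arrays of S. kudriavzevii and Fermol cryophile at 28°C lay above the 6 at 12°C, while the S. uvarum arrays overlapped. The averaged difference was 1.23 (SE 0.27, adjusted p = 0.00286 by limma), or 2.34-fold. Within Fermol cryophile the PGI1 ratio to T73 was higher at 28°C by 1.56 (SE 0.46, adjusted p = 0.0401 by limma). PGI1 was the only one of the 32 genes called there, where 12.2% of all genes were called. That call within Fermol cryophile was lost when any 1 of 6 arrays was left out (12°C A, B or C, 28°C A or B, or S. kudriavzevii 28°C A), with log2 differences of 1.41 to 1.63 and adjusted p-values of 0.0537 to 0.169 by limma, and also when each array was centred on its median, which brought the median difference of all genes to 0.04, against 0.28 as deposited. With arrays scaled to 1 spread 2 genes were called within Fermol cryophile, PGI1 higher and RKI1 lower. Within S. kudriavzevii the PGI1 difference was 1.70 (SE 0.46, adjusted p = 0.0771 by limma).

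TKL2, the minor transketolase of the non-oxidative branch, had the largest averaged difference of the 32 genes. Its log2 ratios at 28°C were 2.21, -0.19 and 0.40 for S. uvarum, 1.14, 0.85 and 0.09 for S. kudriavzevii, and -0.64, -0.49 and 0.39 for Fermol cryophile. At 12°C they were -0.64, -1.45 and -0.39 for S. uvarum, -0.46, -3.08 and -1.28 for S. kudriavzevii, and -1.31, -1.63 and -2.07 for Fermol cryophile. All 9 arrays at 12°C were below 0, and within each strain no array at 28°C was as low as any at 12°C. The share of all genes with all 9 arrays at 12°C on the same side of 0 was not counted, here or for the genes below. The averaged difference was 1.79 (SE 0.40, adjusted p = 0.0034 by limma), or 3.45-fold. Its paralog TKL1, the main transketolase, ranged from -0.82 to 1.36 at 28°C and from -0.30 to 0.92 at 12°C, with an averaged difference of 0.11 (SE 0.29, adjusted p = 0.79 by limma).

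RKI1, ribose 5-phosphate isomerase, which feeds the non-oxidative branch, was the gene that differed in the other direction. At 28°C its log2 ratios were 1.05, -1.24 and -0.72 for S. uvarum, 0.56, -0.37 and -0.73 for S. kudriavzevii, and -1.36, -0.64 and -0.86 for Fermol cryophile. At 12°C they were 1.01, 0.75 and 0.18 for S. uvarum, 1.05, 4.68 and 0.39 for S. kudriavzevii, and 0.98, 0.28 and 0.85 for Fermol cryophile. All 9 arrays at 12°C were above 0, against 2 of 9 at 28°C, and 1 array (S. kudriavzevii 12°C B) stood far above the others. The averaged ratio at 28°C fell by 1.61 on the log2 scale (SE 0.50, adjusted p = 0.0198 by limma), a 3.05-fold lower ratio, and the call was held without that array.

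GLK1 encodes glucokinase, which phosphorylates glucose at the entry to glycolysis, and EMI2 is its paralog. EMI2 at 28°C had log2 ratios of 0.88, -0.13 and 1.67 for S. uvarum, -0.27, -0.59 and 1.74 for S. kudriavzevii, and -0.37, 0.55 and -0.55 for Fermol cryophile. At 12°C it was below 0 on all 9 arrays, with -1.33, -0.67 and -0.83 for S. uvarum, -1.28, -1.06 and -0.45 for S. kudriavzevii, and -0.99, -1.02 and -0.90 for Fermol cryophile. EMI2 was thus tighter at 12°C, where its standard deviation over 9 arrays was 0.28, than at 28°C, where it was 0.92. Its averaged difference was 1.27 (SE 0.35, adjusted p = 0.0112 by limma), or 2.42-fold.

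GLK1 at 28°C had log2 ratios of 0.64, 0.55 and 2.10 for S. uvarum, 0.18, 0.33 and 2.07 for S. kudriavzevii, and 0.29, 1.25 and -0.17 for Fermol cryophile. At 12°C it had -1.53, 2.06 and -0.85 for S. uvarum, -0.55, -2.75 and 0.03 for S. kudriavzevii, and -0.53, -1.20 and -1.54 for Fermol cryophile. It was above 0 on 8 of 9 arrays at 28°C and on 2 of 9 at 12°C, and the arrays of the 2 temperatures overlapped, with S. uvarum 12°C B the farthest of the 12°C arrays above 0. The averaged difference was 1.57 (SE 0.52, adjusted p = 0.0268 by limma), or 2.96-fold. It was no longer called when any 1 of 6 arrays was left out (S. uvarum 28°C C, S. kudriavzevii 28°C C, Fermol cryophile 28°C B, S. uvarum 12°C A or C, or S. kudriavzevii 12°C B), with differences of 1.29 to 1.44 and adjusted p-values of 0.0503 to 0.0596 by limma. The hexokinases, which phosphorylate both glucose and fructose, had averaged differences of 0.30 (SE 0.39) for HXK1 and 0.25 (SE 0.56) for HXK2, neither called.

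GND2, the minor 6-phosphogluconate dehydrogenase of the oxidative branch, had log2 ratios at 28°C of 0.90, 0.87 and 2.40 for S. uvarum, 0.29, -0.35 and 0.01 for S. kudriavzevii, and -0.71, -0.84 and -0.11 for Fermol cryophile. At 12°C they were -0.40, 0.72 and 0.96 for S. uvarum, -2.17, -1.36 and -1.57 for S. kudriavzevii, and -1.20, -1.25 and -0.83 for Fermol cryophile. The S. uvarum arrays were above 0 except for 12°C A, at -0.40, and S. kudriavzevii at 12°C was the lowest group. The averaged difference was 1.06 (SE 0.30, adjusted p = 0.0126 by limma), or 2.09-fold. GND1, the main 6-phosphogluconate dehydrogenase, ranged from -0.90 to 2.72 at 28°C and from -1.25 to 1.80 at 12°C, with an averaged difference of 0.78 (SE 0.40, adjusted p = 0.133 by limma).

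**Figure D2:**
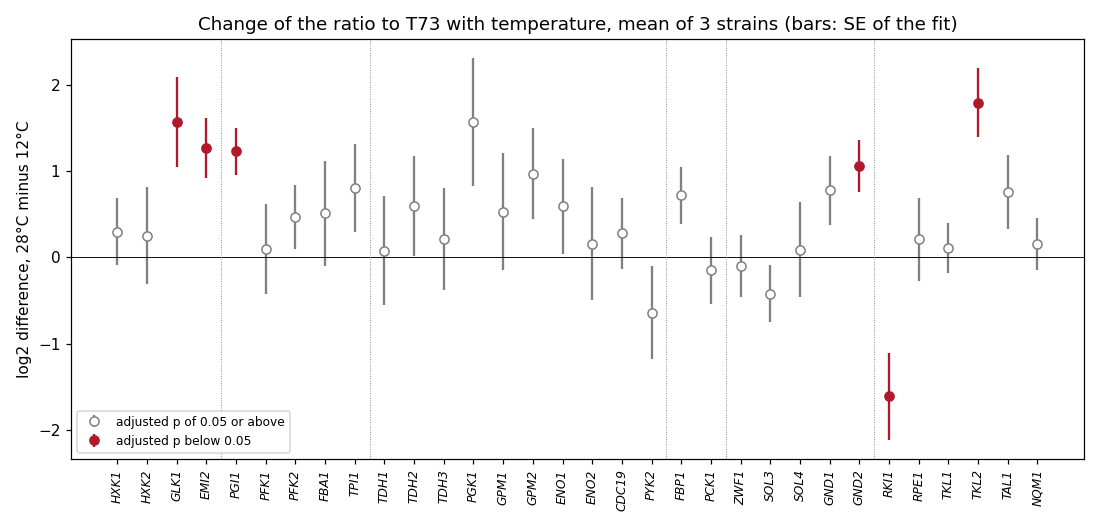
Averaged difference of the log2 ratio to T73, 28°C minus 12°C, over the 3 strains for each of the 32 genes, with the SE of the fit as bars and filled points for an adjusted p below 0.05. GLK1, EMI2, PGI1, GND2 and TKL2 lie above 0 and RKI1 below, while the 10 genes of lower glycolysis carry no filled point.

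Within single strains fewer of these genes were called. In S. uvarum none was called by limma, against 2.87% of all genes, and 4 had an unadjusted p below 0.05 (EMI2, FBP1, TAL1 and TKL2). In S. kudriavzevii none was called by limma, against 0.407% of all genes, and 5 had an unadjusted p below 0.05 (GLK1, GND2, PGI1, RKI1 and TKL2). The change with temperature was also compared between strains, in 3 comparisons with a median SE of 1.2 over the 32 genes. None of the 32 genes was called by limma, as for all genes (0%), and TAL1, transaldolase, was the only one with an unadjusted p below 0.05, at 2.42 for S. uvarum minus S. kudriavzevii (SE 1.06, adjusted p = 0.94 by limma). None of the 32 genes had all 9 arrays at 28°C apart from all 9 at 12°C, against 3.59% of the genes with a full set of values.

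The 10 genes of lower glycolysis, which run from glyceraldehyde 3-phosphate dehydrogenase to pyruvate kinase, and the 5 of upper glycolysis before them mostly moved together within an array. At 28°C the median log2 ratio of these 15 genes on arrays A, B and C was -2.47, -0.17 and 0.97 in S. uvarum. It was -1.32, -0.71 and 2.17 in S. kudriavzevii, and 0.95, 1.33 and -0.99 in Fermol cryophile. Replicates of 1 group therefore lay on opposite sides of T73, and in no group at 28°C did the median of these genes keep 1 direction. At 12°C the medians were -0.37, -0.63 and -0.19 for S. uvarum, -0.68, -0.61 and -0.10 for S. kudriavzevii, and -0.57, -0.53 and -0.71 for Fermol cryophile, all below 0. On the same 18 arrays the median of all genes stayed between -0.20 and 0.21.

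The number of the 15 genes above 0 made the same split visible. At 28°C it was 3, 2 and 12 for S. uvarum, 2, 4 and 14 for S. kudriavzevii, and 14, 15 and 2 for Fermol cryophile on arrays A, B and C. At 12°C it was 3, 5 and 4 for S. uvarum, 2, 3 and 6 for S. kudriavzevii, and 1, 1 and 1 for Fermol cryophile. The median within-group standard deviation of the 15 genes was 1.47 at 28°C and 0.484 at 12°C, while that of all genes was 0.665 at 28°C and 0.64 at 12°C. By strain, the 15 genes at 28°C had a spread of 1.61 in S. uvarum, beside 0.913 for all genes, 2.19 in S. kudriavzevii, beside 0.564, and 1.21 in Fermol cryophile, beside 0.592.

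The most extreme single genes were picked after their values were seen. ENO2, the enolase of fermenting cells, ranged from -3.99 to 2.15 at 28°C and from -1.15 to 0.13 at 12°C. PGK1, phosphoglycerate kinase, ranged from -2.47 to 3.73 at 28°C and from -1.82 to 1.34 at 12°C, and GPM1, phosphoglycerate mutase, ranged from -3.51 to 3.13 at 28°C and from -1.28 to -0.13 at 12°C. The ranges of all 3 genes were wider at 28°C. CDC19, the main pyruvate kinase, ranged from -0.78 to 1.99 at 28°C and from -1.06 to 1.32 at 12°C, a smaller contrast. TDH1, TDH2 and TDH3, which encode glyceraldehyde 3-phosphate dehydrogenase, are similar copies that probes of whole ORFs may not fully separate. Their log2 ratios on S. kudriavzevii 28°C C were 3.23, 3.35 and 3.27. On S. uvarum 12°C B, however, TDH1 stood apart, at 1.57 beside -0.41 and -0.63 for TDH2 and TDH3.

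The 22 genes without a call included most of the glycolytic enzymes. PFK1 and PFK2, the subunits of phosphofructokinase, were below 0 on all 9 arrays at 12°C (-1.52 to -0.12 for PFK1 and -1.67 to -0.05 for PFK2), and at 28°C ranged from -3.77 to 1.97 for PFK1 and from -1.45 to 0.97 for PFK2. GPM2, a homolog of the mutase with little known activity, and ENO1, the second enolase, were also below 0 on all 9 arrays at 12°C (-2.04 to -0.13 for GPM2 and -1.87 to -0.23 for ENO1), against 5 of 9 arrays above 0 for GPM2 and 4 of 9 for ENO1 at 28°C. How common such a pattern at 12°C was among all genes was not counted. The averaged differences of these 4 genes were 0.10 for PFK1, 0.47 for PFK2, 0.97 for GPM2 and 0.59 for ENO1, with adjusted p-values of 0.161 to 0.89 by limma. FBA1, aldolase, ranged from -3.13 to 2.17 at 28°C and from -1.13 to 0.58 at 12°C, and TPI1, triose phosphate isomerase, from -1.16 to 2.79 at 28°C and from -0.93 to 0.68 at 12°C. ZWF1, glucose 6-phosphate dehydrogenase, the first step of the oxidative branch, was above 0 on 3 of 9 arrays at each temperature, with an averaged difference of -0.10 (SE 0.36, adjusted p = 0.847 by limma). TAL1 ranged from -1.36 to 2.35 at 28°C and from -1.48 to 0.49 at 12°C, with an averaged difference of 0.76 (SE 0.43, adjusted p = 0.175 by limma).

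A second set of abundant transcripts was measured on the same arrays. The 136 ribosomal protein genes had medians on arrays A, B and C at 28°C of 0.78, 1.10 and 1.91 for S. uvarum, 0.06, -0.18 and 0.66 for S. kudriavzevii, and 2.14, 2.01 and 0.21 for Fermol cryophile. At 12°C their medians were -0.19, 0.76 and 0.66 for S. uvarum, -0.48, 0.44 and 0.89 for S. kudriavzevii, and -0.63, -0.87 and -0.94 for Fermol cryophile. At 28°C the ribosomal genes had their highest array (C) in common with the glycolytic genes in S. uvarum and S. kudriavzevii, and their lowest array (C) in Fermol cryophile. On S. uvarum 28°C A, however, the ribosomal genes were above T73 while the glycolytic genes were far below it. The part of these array-wide movements in the values of single genes was not tested. In bulk RNA fewer cells with a transcript cannot be told apart from less transcript per cell.

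**Figure D3:**
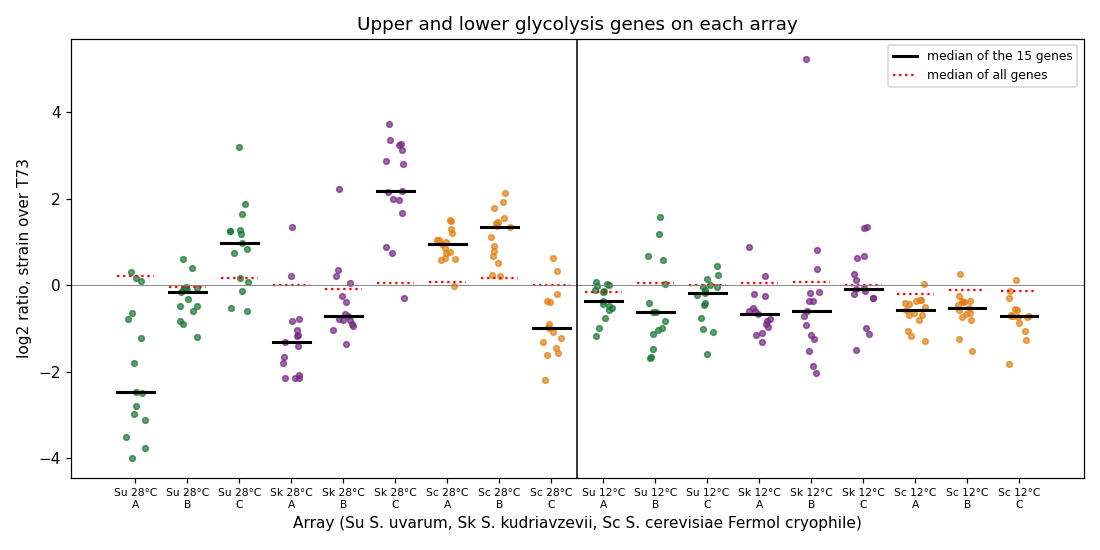
Log2 ratio of strain over T73 for the 15 genes of upper and lower glycolysis (points) on each array, with their median (black line) and the median of all genes on that array (red dotted line). The glycolysis medians run from -2.47 to 2.17 at 28°C and from -0.71 to -0.10 at 12°C.

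The second question was how each strain differed from T73 at each temperature. In S. uvarum at 28°C, 2 of the 32 genes were called, both higher than T73, against 10.9% of all genes (7.99% higher). RPE1, ribulose 5-phosphate epimerase of the non-oxidative branch, had log2 ratios of 4.46, 0.39 and 1.40 there, against 0 for equality with T73. All 3 arrays were above 0 but 1 was far above the others, and the mean of 2.08 (SE 0.59, adjusted p = 0.0344 by limma) was 4.24-fold. The call was lost without array A (0.90, adjusted p = 0.252 by limma) and without array C (2.43, adjusted p = 0.0976 by limma). GND2, with 0.90, 0.87 and 2.40, averaged 1.39 (SE 0.37, adjusted p = 0.0249 by limma), or 2.62-fold, and was lost without array C (0.88, adjusted p = 0.258 by limma). Both calls were also lost when the arrays were scaled to 1 spread, and when only the arrays compared were fitted.

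SOL4, a 6-phosphogluconolactonase of the oxidative branch, had the lowest mean of the 32 genes in S. uvarum at both temperatures and was not called. Its log2 ratios were 0.56, -2.77 and -3.13 at 28°C and 0.12, -1.77 and -3.45 at 12°C. Array A was near T73 and arrays B and C far below it at each temperature, with means of -1.78 (SE 0.68, adjusted p = 0.0967 by limma) at 28°C and -1.70 (SE 0.68, adjusted p = 0.132 by limma) at 12°C. S. uvarum arrays B and C are also those whose collection number in the strain field of the labels differed from the titles. Whether this bears on SOL4 was not tested. S. kudriavzevii had the same order of arrays, with 0.39, -0.84 and -1.02 at 28°C and 0.11, -1.51 and -2.63 at 12°C. In Fermol cryophile SOL4 lay between -1.09 and -0.17 on all 6 arrays.

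At 28°C none of the 32 genes was called by limma in S. kudriavzevii, against 0.146% of all genes, nor in Fermol cryophile, against 0.0325% of all genes. In each of these groups 2 genes had an unadjusted p below 0.05, PGI1 above T73 and NQM1 below it. PGI1 averaged 1.48 in S. kudriavzevii (SE 0.33, adjusted p = 0.096 by limma) and 1.18 in Fermol cryophile (SE 0.33, adjusted p = 0.175 by limma), and was above 0 on all 6 arrays. After the arrays were scaled to 1 spread, PGI1 was called in both strains.

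In S. uvarum at 12°C none of the 32 genes was called by limma, against 6.4% of all genes, and 3 had an unadjusted p below 0.05 (EMI2, GND1 and SOL4). In S. kudriavzevii at 12°C 5 of the 32 genes were called (15.6%), against 23.4% of all genes, and the difference between these shares was not tested. GND2 was lower than T73 on all 3 arrays, at -2.17, -1.36 and -1.57, with a mean of -1.70 (SE 0.37, adjusted p = 0.00671 by limma), and this was the only one of the 11 calls of a strain against T73 or within a strain that was held without any 1 array. NQM1, a paralog of transaldolase, had -1.66, -1.04 and -1.58, a mean of -1.43 (SE 0.37, adjusted p = 0.0135 by limma), and was lost without array A (-1.31, adjusted p = 0.0719 by limma).

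The other 3 calls in S. kudriavzevii at 12°C rested on array B. PYK2, the second pyruvate kinase, had 0.88, 5.23 and -0.10, and its mean of 2.00 (SE 0.66, adjusted p = 0.039 by limma) was 0.39 without array B (adjusted p = 0.597). RKI1, with 1.05, 4.68 and 0.39, averaged 2.04 (SE 0.61, adjusted p = 0.025 by limma) and was 0.72 without array B (adjusted p = 0.358). TKL2, with -0.46, -3.08 and -1.28, averaged -1.61 (SE 0.49, adjusted p = 0.0273 by limma) and was -0.87 without array B (adjusted p = 0.281). On this array GLK1 was also at its lowest, -2.75, and HXK2 at its highest, 2.74, over all 18 arrays. Array B of this group had the widest spread of the 18 arrays, with a standard deviation of 1.99 over all genes, and the fewest values. With arrays scaled to 1 spread only GND2 was called, so that the split of 2 higher and 3 lower became 0 higher and 1 lower, and a fit of only the arrays compared called 0 of the 32 genes.

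In Fermol cryophile at 12°C 3 of the 32 genes were called (9.38%), against 8.12% of all genes. NQM1 was lower than T73, at -1.19, -1.32 and -1.95, with a mean of -1.49 (SE 0.37, adjusted p = 0.0321 by limma). TKL2 was lower, at -1.31, -1.63 and -2.07, with a mean of -1.67 (SE 0.49, adjusted p = 0.046 by limma). SOL3, the paralog of SOL4, was higher, at 2.44, 0.48 and 1.23, with a mean of 1.38 (SE 0.40, adjusted p = 0.0459 by limma). The arrays of NQM1 and TKL2 stood close together, while those of SOL3 were far apart. Without 1 array of the group NQM1 (-1.64 to -1.26, adjusted p of 0.104 to 0.225 by limma), TKL2 (-1.85 to -1.47, adjusted p of 0.154 to 0.227) and SOL3 (0.85 to 1.84, adjusted p of 0.088 to 0.385) were no longer called. SOL3 and TKL2 were also lost, at the same means and adjusted p-values of 0.0502 to 0.0611 by limma, without S. uvarum 12°C A or C, Fermol cryophile 28°C A or B, or S. kudriavzevii 28°C A, B or C, and SOL3 in addition without S. uvarum 28°C B or Fermol cryophile 28°C C. With arrays centred on their medians NQM1 and SOL3 were called, 1 lower and 1 higher.

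The 32 genes of Fermol cryophile at 12°C lay mostly below T73. Of their means, 29 were below 0, with a median of -0.62, beside a median of -0.13 over all genes, of which 44.9% were above 0. The ribosomal protein genes also lay mostly below T73 in this group, with medians of -0.63, -0.87 and -0.94 on arrays A, B and C. All 15 genes of upper and lower glycolysis had a mean below 0, from -1.55 for PGK1 to -0.01 for PYK2, and none was called by limma. With each array centred on its median, 26 of the 32 and 14 of the 15 were below 0. At 12°C the within-group standard deviation of the 15 genes in Fermol cryophile was 0.204, the lowest of the 6 groups, and that of all genes, 0.456, was the lowest as well. The fit pooled the spread of each gene over all groups, so the wider 28°C arrays (1.21 for the 15 genes in Fermol cryophile) entered the SE used here. With array weights or with only its own arrays, more of the 32 genes were called in this group, as given below. The other strains had 12 of the 15 genes below 0 at 12°C, with medians of -0.34 in S. uvarum, where that of all genes was 0.04, and -0.46 in S. kudriavzevii, where it was 0.07.

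**Figure D4:**
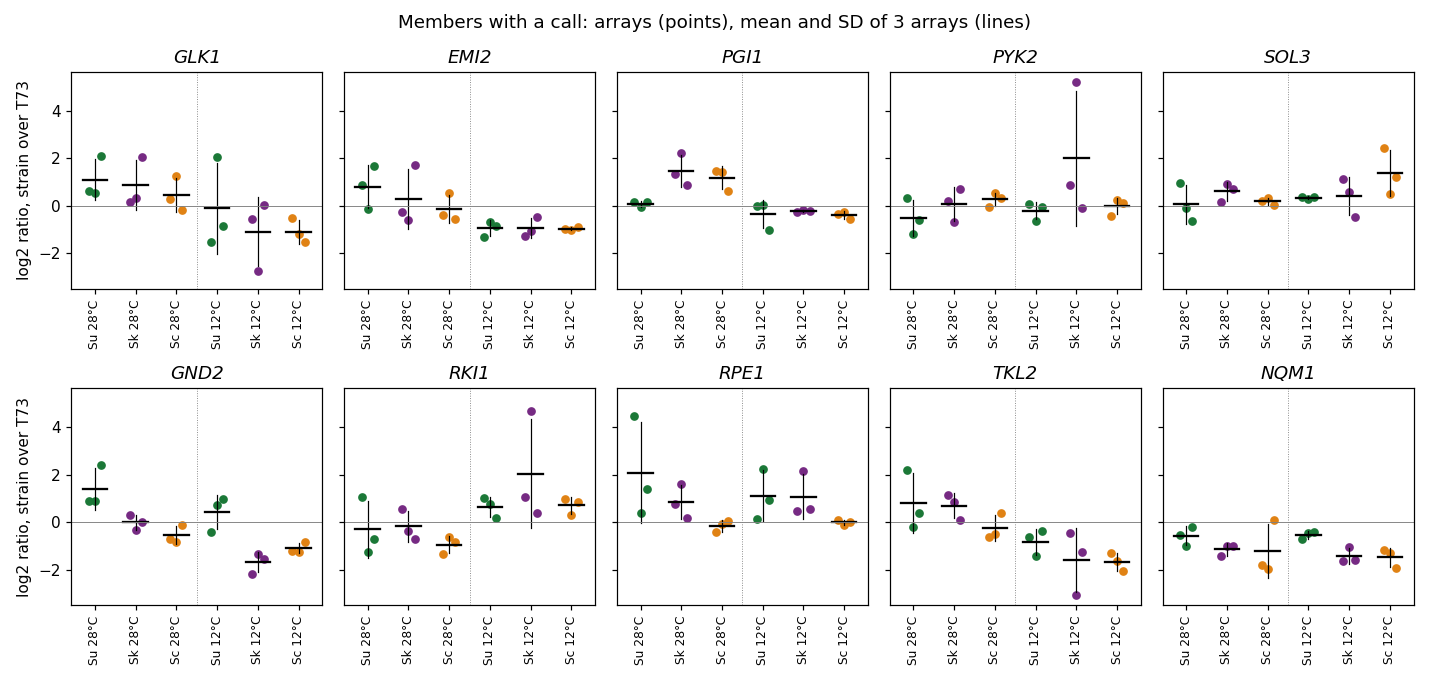
Log2 ratio of strain over T73 for the 10 genes with at least 1 call, with a point per array and lines for the mean and SD of the 3 arrays of each group (28°C left of 12°C, Su S. uvarum, Sk S. kudriavzevii, Sc S. cerevisiae Fermol cryophile). TKL2 and EMI2 are below 0 on all 9 arrays at 12°C, and PYK2 and RKI1 in S. kudriavzevii at 12°C rest on 1 high array.

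A rule of size from the study's methods, a median of the arrays at least 2-fold from T73, was applied here without a test. At 28°C it took 4 of the 32 genes in S. uvarum (FBP1, GND1 and RPE1 higher, SOL4 lower), against 34.2% of all genes. It took 3 in S. kudriavzevii (PGI1 higher, PFK2 and TAL1 lower), against 15.1%, and 6 in Fermol cryophile (CDC19, FBA1, GPM1, PGI1 and TDH2 higher, NQM1 lower), against 22.5%. The 4 glycolytic genes CDC19, FBA1, GPM1 and TDH2 in Fermol cryophile passed through arrays A and B while array C was below 0 for each. At 12°C the rule took 4 genes in S. uvarum (GND1 higher, GPM2, PGK1 and SOL4 lower), against 27.8%. It took 9 in S. kudriavzevii (RKI1 higher, and EMI2, ENO1, GND2, GPM2, HXK1, NQM1, SOL4 and TKL2 lower), against 40.3%, and 9 in Fermol cryophile (SOL3 higher, and GLK1, GND1, GND2, NQM1, PFK2, PGK1, TAL1 and TKL2 lower), against 30.3%. The share of the 32 genes lay between 9.38% and 28.1%, in each group below the share of all genes in that group, a difference that was not tested. At a limit of 3-fold the rule took 1, 0 and 1 gene in S. uvarum, S. kudriavzevii and Fermol cryophile at 28°C, against 14.6%, 3.16% and 7.23% of all genes, and 1, 0 and 1 at 12°C, against 9.19%, 19.5% and 10.1%.

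The gluconeogenic genes gave no call. FBP1, fructose 1,6-bisphosphatase, had 1.44, -0.06 and 1.37 in S. uvarum at 28°C and -0.90, -1.10 and -0.01 in S. uvarum at 12°C, values chosen after they were seen. The 28°C arrays lay above the 12°C arrays except for 28°C B, which was just below 12°C C, and the difference of 1.58 (SE 0.57) had an adjusted p of 0.118 by limma. PCK1, phosphoenolpyruvate carboxykinase, was above 0 on 6 of 9 arrays at 28°C and on 8 of 9 at 12°C, with an averaged difference of -0.15 (SE 0.39, adjusted p = 0.786 by limma).

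The third question was whether the strains differed from each other, in 6 comparisons of pairs at 1 temperature, each with a median SE of 0.848. No gene of the 32 was called by limma in any pair. Of all genes, 0.146% were called for S. uvarum against S. kudriavzevii and 0.0163% for S. kudriavzevii against Fermol cryophile at 28°C, 0.0162% for S. uvarum against Fermol cryophile at 12°C, and 0% for the other pairs. Unadjusted p-values below 0.05 numbered 4 for S. uvarum against Fermol cryophile at 28°C, 2 for S. uvarum against S. kudriavzevii at 28°C, 0 for S. kudriavzevii against Fermol cryophile at 28°C, and 2, 3 and 1 for the same pairs at 12°C. GND2 was among them in all 4 comparisons that held S. uvarum. Its difference was 1.94 against Fermol cryophile and 1.40 against S. kudriavzevii at 28°C, and 1.52 against Fermol cryophile and 2.13 against S. kudriavzevii at 12°C (SE 0.52 each), with adjusted p-values of 0.305, 0.313, 0.597 and 0.481 by limma. These pairs share the S. uvarum arrays and are not independent.

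**Figure D5:**
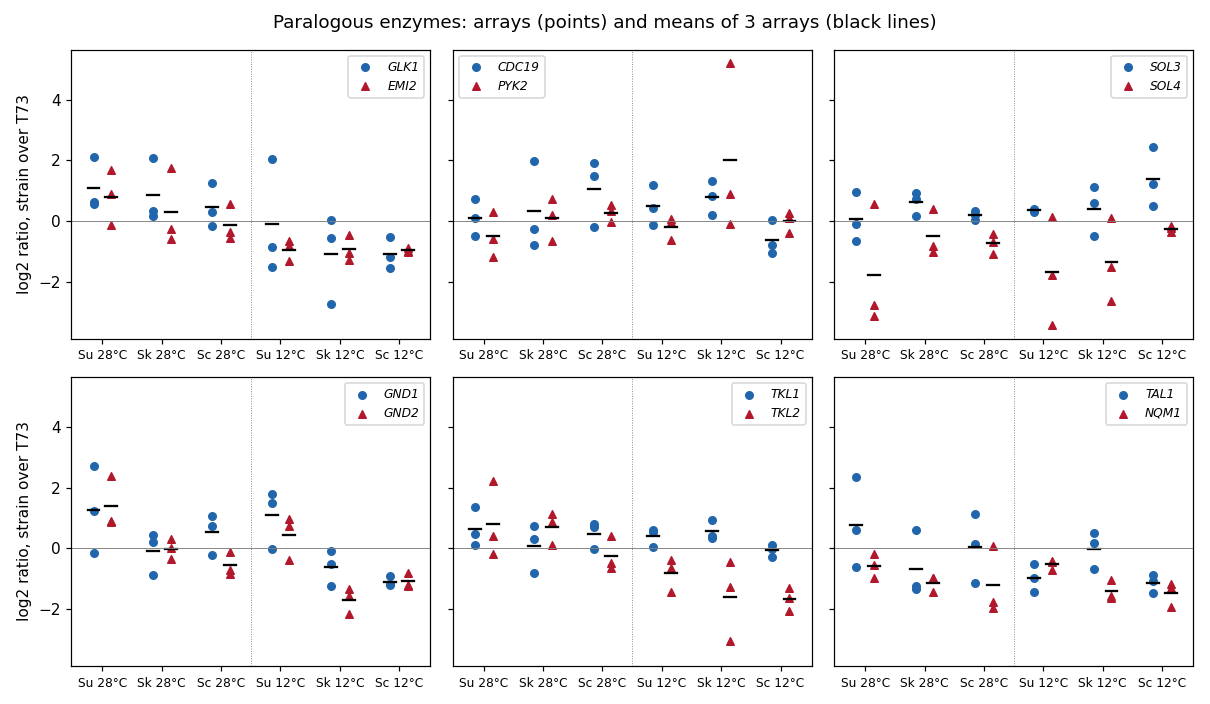
Log2 ratio of strain over T73 for 6 pairs of paralogous enzymes, with a point per array, blue circles for the first and red triangles for the second gene of each pair, and black lines at the means of 3 arrays. At 12°C TKL2 is below 0 on all 9 arrays, while TKL1 runs from -0.30 to 0.92.

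The other genes of the pathway were taken from a list of 34 genes (regulators, fructose 2,6-bisphosphate enzymes, phosphoglucomutases, pyruvate carboxylases and malate enzymes, further paralogs and the ubiquitin ligase that degrades gluconeogenic enzymes). In the averaged temperature difference 11 were higher relative to T73 at 28°C and 1 was lower, in all 35.3% of the list, against 36.2% of all genes. MDH2, the cytosolic malate dehydrogenase of gluconeogenesis, had the smallest adjusted p, with an averaged difference of 2.48 (SE 0.35, adjusted p = 0.000304 by limma), and was lower than T73 at 12°C in S. kudriavzevii (-2.71) and in Fermol cryophile (-2.20). The MDH2 call in Fermol cryophile at 12°C was lost without any 1 of its own 3 arrays (-2.44 to -1.98, adjusted p of 0.0633 to 0.223 by limma). PYC2, a pyruvate carboxylase that makes oxaloacetate, was the gene whose ratio to T73 was lower at 28°C, by 2.02 (SE 0.46, adjusted p = 0.00362 by limma). It was higher than T73 at 12°C in S. kudriavzevii (2.51) and in Fermol cryophile (2.01). The PYC2 call at 12°C was lost in S. kudriavzevii without array A (1.85, adjusted p = 0.0681 by limma), and in Fermol cryophile without any 1 of its own 3 arrays, Fermol cryophile 28°C A or S. kudriavzevii 28°C A (1.48 to 2.39, adjusted p of 0.054 to 0.318). SNF1, the kinase that relieves glucose repression, was higher relative to T73 at 28°C by 1.81 (SE 0.34, adjusted p = 0.00108 by limma), and VID28, a subunit of the ubiquitin ligase, by 1.46 (SE 0.30, adjusted p = 0.00182 by limma). In the averaged difference, the calls of MDH2, PYC2, SNF1, VID28 and SHB17, described below, were held when any 1 array was left out. All other calls of the list in that comparison were lost without at least 1 array.

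Against T73 the listed genes called were 3 higher in S. uvarum at 28°C, none in S. kudriavzevii or Fermol cryophile at 28°C (4 and 2 with an unadjusted p below 0.05 by limma), 1 lower in S. uvarum at 12°C, 2 higher and 5 lower in S. kudriavzevii at 12°C, and 1 higher and 2 lower in Fermol cryophile at 12°C. In S. uvarum at 28°C GID7, another subunit of the ligase, was higher by 3.13 (SE 0.52, adjusted p = 0.00358 by limma), and SHB17, sedoheptulose bisphosphatase, which supplies the non-oxidative branch, by 2.65 (SE 0.41, adjusted p = 0.00287 by limma). In S. kudriavzevii at 12°C ERR3, an enolase-related gene with near-identical copies that the probe may not separate, was lower by 1.92 on the log2 scale (adjusted p = 0.0111 by limma), and FYV10, a subunit of the ligase, by 1.36 (adjusted p = 0.0171). The ERR3 call was lost without array A (-1.73, adjusted p = 0.0652 by limma) or array B (-1.77, adjusted p = 0.0682) and when the arrays were scaled to 1 spread or quantile-normalised, and the FYV10 call without array A (-1.24, adjusted p = 0.0889) or array C (-1.28, adjusted p = 0.0594). Fits of only the arrays compared called none of these genes in S. uvarum at 28°C or in S. kudriavzevii at 12°C.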

How the data were processed

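The labels placed 18 arrays in 6 groups of 3. In the strain field of the labels the S. uvarum collection numbers of replicates B and C differed from that of the titles, and the group follows the titles. Values deposited by the authors were log2 ratios, 1 for each ORF on each array. By their methods, spots read with GenePix Pro were background-subtracted, and arrays were normalised in Acuity. Scanner intensities and signal over background were not used here, and precision is limited by the number of arrays. The methods mention 2 independent fermentations and the series design 3 biological replicates, and shared cultures would make the p-values too small. The numerator was not stated. The sign was turned from Cy5 over Cy3 to strain (Cy3) over T73 (Cy5). After this, 114 of 114 directions given in the study's text matched the group medians, against 0 as deposited. A single array of the opposite sign may not show in a median of 3 arrays.

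Lines of 1 gene were averaged, and 2 control lines were left out, which left 6172 genes from 6178 ORFs. Symbols came from the RefSeq annotation R64 (5674 ORFs matched by locus tag, 12 by an older name and 492 not matched), and no coordinates or sequences were used. One coefficient per group was fitted to all arrays with limma 3.58.1 (R 4.3.3, lmFit and eBayes), for genes with at least 2 values per group. T73 was the other channel on every array, and the log2 ratio to it was tested for a departure from 0. Whether replicate arrays shared T73 RNA is not stated in the sources used here, so how far the spread among T73 cultures enters the p-values is unknown. Tests were two-sided with Benjamini-Hochberg adjustment over all genes of a comparison, and 19 comparisons were made. The fit was checked on simulated data with noise drawn independently for each gene and array. Array-wide movements like those of the glycolytic genes were not part of that check. Arrays of opposite temperature correlated at as low as -0.62 over all genes (15 of 81 pairs below -0.3), and the direction was kept because the labels state the dyes.

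Values per array are given for genes called in any of 10 comparisons and for the highest and lowest mean of each group, the others by range. Of the other 34 genes, at most 8 of those called were named, by smallest adjusted p. The members and lists were chosen with earlier results of these data known. Alternatives were centring, scaling and quantile normalisation of arrays, array weights, fits of only the arrays compared, other filters, a replicate block, leaving out each array, and the 2-fold rule on medians of the methods with a 3-fold version.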

Additional observations from a re-analysis of the deposited data

Results flagged for a closer look

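Among the genes described above, 7 temperature differences passed the test of the difference itself. Averaged over the strains, 28°C minus 12°C, these were EMI2 (1.27), GLK1 (1.57), GND2 (1.06), PGI1 (1.23), TKL2 (1.79) and RKI1 (-1.61) on the log2 scale, and within S. cerevisiae Fermol cryophile it was PGI1 (1.56). T73 was measured on all arrays, so each value holds the change of T73 with temperature, with its sign turned. Tests of whether such a change differed between strains gave no call by limma for these 32 genes (1 with an unadjusted p below 0.05).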

How the results depend on the processing

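The single calls of the 32 genes and of the 34 other genes were followed under the alternative settings. In all, 1058 kept their direction and side of the threshold, 240 kept their direction but were no longer called, and 0 reversed. Many of these settings left out 1 array outside the groups compared. This cannot change the log2 value, so the absence of reversals was partly fixed in advance. The averaged temperature difference kept the same 6 called genes when arrays were centred, scaled or quantile-normalised, and array weights called 8. The count in brackets is that of the reported fit. In S. uvarum at 28°C 0 genes were called with scaled arrays, quantile normalisation, array weights or only the arrays compared, 4 passed the 2-fold median rule and 1 the 3-fold rule (2 called). In S. kudriavzevii at 28°C 2 were called with scaling or quantile normalisation, 3 with array weights and 3 passed the 2-fold rule (0 called). In Fermol cryophile at 28°C 1 was called with scaling or quantile normalisation, 4 with array weights, and 6 passed the 2-fold and 1 the 3-fold rule (0 called). In S. uvarum at 12°C 1 was called with array weights, and 4 passed the 2-fold and 1 the 3-fold rule (0 called). In S. kudriavzevii at 12°C 1 was called with scaling or quantile normalisation, 2 with array weights, 0 with only the arrays compared, and 9 passed the 2-fold and 0 the 3-fold rule (5 called). In Fermol cryophile at 12°C 11 were called with array weights, 8 with only the arrays compared, and 9 passed the 2-fold and 1 the 3-fold rule (3 called). Between temperatures in Fermol cryophile 0 were called after centring, 2 with scaling or quantile normalisation, 14 with array weights and 4 with only the arrays compared (1 called). Between temperatures in S. kudriavzevii 1 was called with quantile normalisation and 3 with array weights (0 called). Array weights also called 1 gene for S. uvarum against Fermol cryophile at 12°C and 4 for S. kudriavzevii against Fermol cryophile at 28°C (0 called in each). The causes were not tested.

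Without 1 array at a time, the number of genes called ranged from 0 to 3 in S. uvarum, was 0 in S. kudriavzevii and ranged from 0 to 1 in Fermol cryophile at 28°C. It was 0 in S. uvarum and ranged from 2 to 6 in S. kudriavzevii and from 0 to 4 in Fermol cryophile at 12°C. For the temperature difference it ranged from 5 to 8 averaged over strains, from 0 to 1 in S. uvarum, was 0 in S. kudriavzevii and ranged from 0 to 2 in Fermol cryophile, and it was 0 for all pairs of strains and all differences in the change with temperature. With the replicate block, 3 genes were called in S. uvarum at 28°C in place of 2, and no other count changed. The letters were not taken to pair the arrays. Residuals of same-letter arrays correlated at a median of 0.028 (-0.346 to 0.384), and above 0.1 in 15 of 45 pairs. Pairs of unlike letters were not compared, so whether the letters pair the arrays was not tested.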
